A study of Mus musculus with 6 samples.

Results

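Lysosomal genes were compared in F4/80+ cells taken from tumours that had been implanted in St2-/- mice (3 samples) or wild type mice (3 samples). The set held 52 of the 19938 genes tested. It was made of 31 listed genes, namely 9 cathepsins, 13 other hydrolases and soluble proteins, 6 membrane proteins and 3 transcription factors, plus all 21 measured genes whose symbol begins with Atp6v0 or Atp6v1, which code for the lysosomal proton pump. Mouse macrophages carry F4/80 on their surface, and the cytokine IL-33 acts through ST2. The genotype named is that of the host mouse, and the St2 transcript itself was not analysed here. The labels give neither the tumour, its genotype, the age of the mice nor the allele of St2, and do not say whether each sample came from a separate animal, so p-values measure only how far these samples vary, which may be technical variation. Each sample was hybridised to an Affymetrix 1.0 ST Gene array, and values are the deposited RMA values, which were read as log2. Every difference is St2-/- minus wild type on that scale, with its standard error, and a gene was called where its limma adjusted p, taken over all genes, was under 0.05.

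Lysosomes are acidic compartments in which macrophages break down what they engulf. Cathepsins cut proteins there, other acid hydrolases take apart sugars, lipids and glycoproteins, and membrane proteins protect the outer layer and carry products out. The acid comes from the V-type ATPase, a rotary pump with a cytosolic sector, V1, that splits ATP, and a membrane sector, V0, that moves protons, and several of its subunits have alternative isoforms coded by separate genes. The transcription factor TFEB and its relatives TFE3 and MITF bind a short element near the start of many lysosomal genes.

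The lysosomal genes moved in both directions, and within most of the groups some rose and others fell. Of the 52 genes, 24 were called (46.2%), 15 higher and 9 lower in St2-/-. Over all genes 20.8% were called, 10.7% higher and 10.0% lower. Nearly all of the lysosomal genes had bright probe sets: outside the dimmest 40% of genes 24 of 49 were called (49.0%), against 30.3% of all such genes. The median difference was 0.02 over the 52 genes and -0.02 over all genes, and the median size of the difference, sign aside, was 0.15 over the 52 genes and 0.12 over all genes. The 3 values of St2-/- and the 3 of wild type did not overlap for 32 of the 52 genes (61.5%), against 36.4% of all genes, dim ones included. They did not overlap for any of the 24 called genes, nor for 4122 of the 4140 genes called over all genes, so this adds nothing to the calls. A lower or higher level of a messenger RNA in such bulk samples cannot be told apart from fewer or more cells that make it.

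The balance of higher and lower genes depended on the scaling of the arrays. After cyclic loess 7 of the genes were higher and 11 lower, and with each array centred on its median 18 were higher and 7 lower. Over all genes the same rescalings gave 1729 higher and 1964 lower after cyclic loess, and 3686 higher and 1294 lower with centring, against 2142 higher and 1998 lower as deposited. Without St2-/- replicate 1 or without St2-/- replicate 3, 7 of the lysosomal genes were higher and 7 lower. Over all genes 1551 were higher and 1584 lower without St2-/- replicate 1, and 1466 higher and 1421 lower without St2-/- replicate 3. Under the 14 alternative settings 6 of the higher genes and 7 of the lower genes held their call throughout, namely Ctse, Ctsh, Lipa, Psap, Npc2 and Atp6v0e2, and Ctsd, Ctsl, Ctsk, Tpp1, Cd63, Atp6v0a1 and Atp6v0d2. None of the 24 called genes changed sign under any of these settings, which included both rescalings of the arrays.

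**Figure D1:**
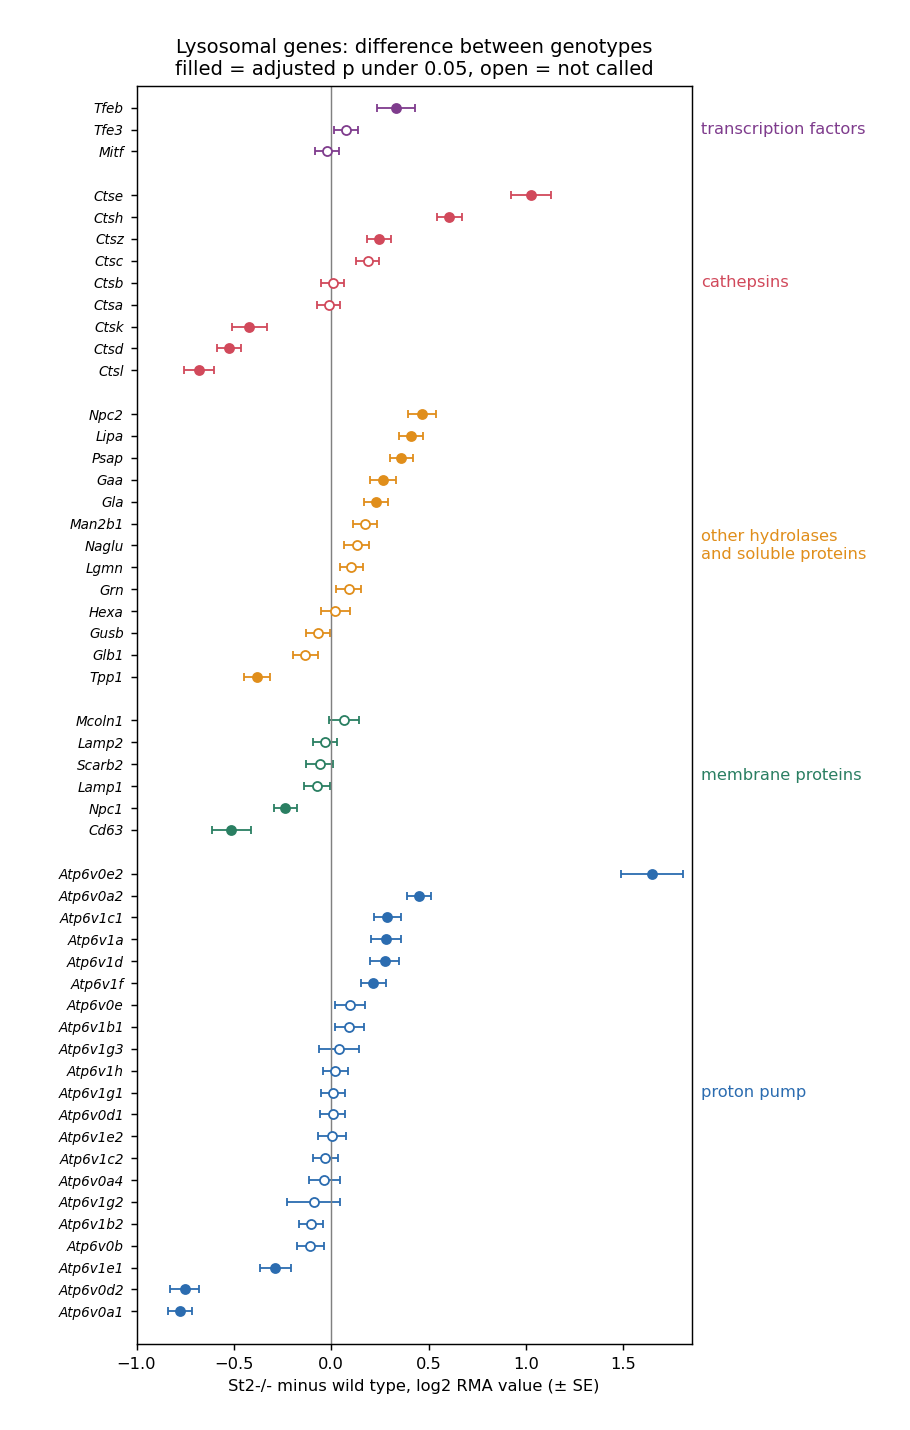
Difference between St2-/- and wild type arrays for each of the 52 lysosomal genes on the log2 scale, with its standard error, sorted within the 5 groups. Filled points are the 24 genes with a limma adjusted p under 0.05. Higher and lower genes stand side by side in the cathepsins and the proton pump, and the greatest rise is that of Atp6v0e2 at 1.65.

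**Figure D2:**
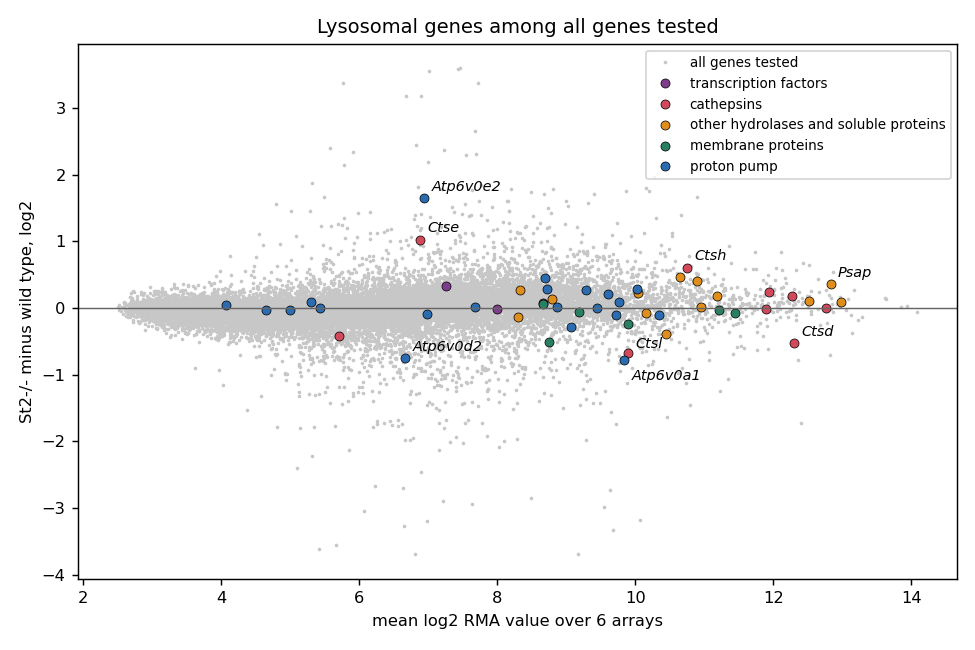
Difference between St2-/- and wild type against the mean log2 RMA value over the 6 arrays for all 19938 genes tested (grey) and the 52 lysosomal genes (coloured by group). Most of the lysosomal genes lie to the right, among the brighter genes, and their differences run from -0.78 to 1.65.

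Medians over all genes were lower in every St2-/- array, at 5.81 to 5.82, than in every wild type array, at 5.88 to 5.93. Centring the arrays on these medians moved all differences by 0.09. Correlations over genes were 0.996 to 0.998 within the groups and 0.986 to 0.988 between them. Of 8 macrophage markers 7 were measured, and their mean level was 11.48 to 11.54 over the St2-/- arrays and 11.48 to 11.51 over the wild type arrays. Adgre1, the gene of F4/80, and the Fc receptor gene Fcgr1 rose (0.31 and 0.36), the engulfment receptor gene Mertk fell (-0.72), and the other 4, Csf1r, Itgam, C1qa and C1qb, differed by -0.04 to 0.06. Some markers of other cells moved with genotype. The counts below stand against 20.8% called of all genes, and 30.3% of those outside the dimmest 40%. Fibroblast markers had 6 of 8 lower and 1 higher, with a mean level of 6.44 to 6.54 in St2-/- and 7.81 to 7.84 in wild type. Endothelial markers had 3 of 6 lower and 2 higher, with mean levels of 5.94 to 6.02 in St2-/- and 6.11 to 6.34 in wild type. For neutrophil markers 3 of 6 were lower and 1 higher, at mean levels of 5.33 to 5.43 in St2-/- and 6.10 to 6.19 in wild type. Dendritic cell markers had 3 of 6 higher and 1 lower, with mean levels of 6.94 to 7.06 in St2-/- and 5.81 to 5.995 in wild type. T cell markers had 4 of 5 measured higher, at 6.01 to 6.03 in St2-/- and 5.09 to 5.27 in wild type. NK cell markers had 1 of 5 higher, B cell markers 2 of 3 higher, mast cell markers 1 of 5 lower, epithelial markers 1 of 5 lower and melanocyte markers 0 of 5 in either direction by limma, with 0 of 5 at an unadjusted p under 0.05. The share called of the NK, mast cell and epithelial lists (20% each) was near the 20.8% of all genes. All 5 NK and all 5 mast cell markers, 4 of the 5 melanocyte markers and 1 of the 5 epithelial markers were in the dimmest 40% of genes. The part of these cells in the lysosomal differences was not tested.

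Of the 3 transcription factors Tfeb alone was called, and its call lay near the threshold. All 3 were outside the dimmest 40% of genes, and the share called (33.3%) was near the 30.3% of all such genes. Under the alternatives the difference of Tfeb stayed between 0.235 and 0.423. Tfeb (probe set 10445729) had 7.34, 7.54 and 7.38 in St2-/- arrays, against 6.89, 7.15 and 7.22 in wild type arrays. All 3 St2-/- values lay above the 3 wild type values, with a difference of 0.33 ± 0.10 (limma adjusted p = 0.036). This adjusted p was 0.0796 after cyclic loess and 0.0954 with every row of the table tested, and it lay between 0.0514 and 0.124 without any 1 of the arrays other than wild type replicate 3. Tfe3 (probe set 10598409), a close relative of Tfeb, had 8.68, 8.73 and 8.70 in St2-/- arrays and 8.60, 8.61 and 8.67 in wild type arrays. The lowest St2-/- value lay just above the highest wild type value, and the difference of 0.08 ± 0.06 was not called (limma adjusted p = 0.426). Mitf (probe set 10540248), which also directs melanocyte and osteoclast genes, had 8.01, 7.99 and 7.97 in St2-/- arrays and 8.05, 8.02 and 7.96 in wild type arrays, which overlapped (-0.02 ± 0.06, limma adjusted p = 0.859).

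Genes that control where TFEB lies in the cell were counted from a separate list of 12. It held nutrient sensors of the lysosomal surface, which keep TFEB in the cytosol, and Ppp3cb, a subunit of calcineurin, which acts the other way. Of the 12, 4 were higher, 0 lower and 8 not called by limma, with a median of 0.19 (6 of the 12 had an unadjusted p under 0.05). Outside the dimmest 40% of genes 4 of 11 were called (36.4%), near the 30.3% of all such genes. Fnip2 and Fnip1, partners of folliculin, rose by 0.61 ± 0.07 and 0.41 ± 0.06, and the Rag GTPase gene Rragc rose by 0.42 ± 0.07. Fnip2 had 9, 9.12 and 9.11 in St2-/- arrays, against 8.40, 8.42 and 8.57 in wild type arrays. The kinase gene Mtor differed by 0.06 ± 0.06 and was not called.

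The element bound by TFEB has the core TCACGTG, or CACGTGA on the other strand, which extends the E-box CACGTG. RefSeq promoter windows of 300 bases, from 250 before to 50 after the start of a gene in GRCm38.p6, were matched to 42 of the 52 genes (51 windows). The core, on either strand, was found in 13 of these 51 windows (25.5%), each from a different gene, and in 3.77% of all 32851 windows. The E-box with any flanks was found in 14 of the 51 windows (27.5%) and in 7.15% of all windows. The genes with a core were Ctsa, Ctsd, Lgmn, Glb1, Naglu, Gaa, Gla, Lamp1, Mcoln1, Atp6v0b, Atp6v0d1, Atp6v0e and Atp6v1a. Of these 13 genes 3 were higher, 1 lower and 9 not called. Of the 29 matched genes without a core in the window 8 were higher, 6 lower and 15 not called. Thus 4 of the 13 and 14 of the 29 were called, where the share over all genes was 20.8%, and 30.3% outside the dimmest 40%. Whether the core goes with a call was not tested. The 10 genes not matched, which are in neither count, were Ctsb, Ctse, Ctsh, Npc1, Atp6v0a2, Atp6v0d2, Atp6v1b2, Atp6v1c1, Atp6v1g1 and Atp6v1h.

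Stretches of 70 bases around the core, 5′ to 3′ on the strand of the gene with the core in capitals, are shown for the 4 called genes that hold one and for Lamp1, which held the most sites and was not called.
Ctsd (chr7:142387888-142387957, minus strand): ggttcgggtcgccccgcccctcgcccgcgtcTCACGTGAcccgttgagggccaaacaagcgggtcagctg
Gaa (chr11:119267791-119267860, plus strand): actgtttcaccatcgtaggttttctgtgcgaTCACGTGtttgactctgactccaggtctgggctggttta
Gla (chrX:134601179-134601248, minus strand): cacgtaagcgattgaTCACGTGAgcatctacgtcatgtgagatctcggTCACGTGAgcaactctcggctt
Atp6v1a (chr16:44139353-44139422, minus strand): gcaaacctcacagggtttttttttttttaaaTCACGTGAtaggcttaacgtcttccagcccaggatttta
Lamp1 (chr8:13159091-13159160, plus strand): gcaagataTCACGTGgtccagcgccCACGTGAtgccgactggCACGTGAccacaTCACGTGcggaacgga
The core of Ctsd, Gla and Atp6v1a reads the same on both strands in these stretches. Lamp1 held 4 sites, whose E-boxes began 61, 45, 28 and 15 bases before the start of the gene, and Ctsd held a second site 245 bases before its start. Gaa, Gla and Atp6v1a were called higher and Ctsd lower. After cyclic loess the calls of Gaa, Gla and Atp6v1a were lost (adjusted p = 0.0808, 0.162 and 0.0992), Ctsd was still lower, and Glb1 was called lower (-0.21, adjusted p = 0.0374).

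Cathepsins split into 3 that fell, 3 that rose and 3 that were not called. All 9 were outside the dimmest 40% of genes, and 66.7% were called, against 30.3% of all such genes. The aspartic protease gene Ctsd and the cysteine protease genes Ctsl and Ctsk fell, and the endosomal aspartic protease gene Ctse, the aminopeptidase gene Ctsh and the carboxypeptidase gene Ctsz rose. The median difference of the 9 was 0.01 and the median size, sign aside, was 0.42.

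Ctsd (probe set 10569319), the main aspartic protease of lysosomes, had 12.04, 12.00 and 12.08 in St2-/- arrays, against 12.53, 12.59 and 12.58 in wild type arrays. The groups lay far apart compared with their own spread, and the level was 1.44-fold lower in St2-/- (-0.53 ± 0.06, limma adjusted p = 0.000227). Ctsl (probe set 10410124), a cysteine endopeptidase that also trims the invariant chain in some antigen-presenting cells, had 9.59, 9.56 and 9.51 in St2-/- arrays, against 10.33, 10.28 and 10.09 in wild type arrays. This was a 1.60-fold lower level in St2-/- (-0.68 ± 0.08, limma adjusted p = 0.000187). Ctsk (probe set 10494262), a collagen-cleaving protease of osteoclasts that fibroblasts also make, had 5.41, 5.68 and 5.42 in St2-/- arrays, against 6.04, 5.83 and 5.90 in wild type arrays. St2-/- replicate 2 lay nearest to wild type, and the difference was -0.42 ± 0.09 (limma adjusted p = 0.00967). Fibroblast markers were lower in the same arrays, with a median difference of -1.01, and their part in the fall of Ctsk was not tested.

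Ctse (probe set 10349648), an aspartic protease of endosomes in immune cells, had 7.36, 7.35 and 7.49 in St2-/- arrays, against 6.61, 6.32 and 6.19 in wild type arrays. It was 2.04-fold higher in St2-/- (1.03 ± 0.10, limma adjusted p = 9.61e-05), and the wild type arrays varied more (SD 0.22) than the St2-/- arrays (SD 0.08). Ctsh (probe set 10587733) had 11.03, 11.05 and 11.07 in St2-/- arrays, against 10.46, 10.50 and 10.37 in wild type arrays, a 1.52-fold higher level (0.61 ± 0.06, limma adjusted p = 0.000121). Ctsz (probe set 10490212) had 12.07, 12.03 and 12.11 in St2-/- arrays, against 11.79, 11.86 and 11.82 in wild type arrays (0.25 ± 0.06, limma adjusted p = 0.0189). The groups of Ctsz did not overlap, but its call was lost after cyclic loess (adjusted p = 0.0906) and without St2-/- replicate 1, St2-/- replicate 3 or wild type replicate 1 (0.0569 to 0.0797).

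The other 3 cathepsin genes were not called. Ctsb, an abundant macrophage cysteine protease, differed by 0.01 ± 0.06 and Ctsa, which also shields beta-galactosidase, by -0.01 ± 0.06, and the groups overlapped. Ctsc, the peptidase that activates granule serine proteases, had 12.37, 12.33 and 12.40 in St2-/- arrays and 12.17, 12.21 and 12.16 in wild type arrays. Its groups did not overlap, yet its difference of 0.19 ± 0.06 had a limma adjusted p of 0.0563, and it was called with arrays centred on their median, with a trended variance prior and with the dimmest genes left out. Ctss, the cathepsin of antigen presentation and the immediate neighbour of Ctsk on chromosome 3, differed by 0.13 ± 0.06 and was not called.

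**Figure D3:**
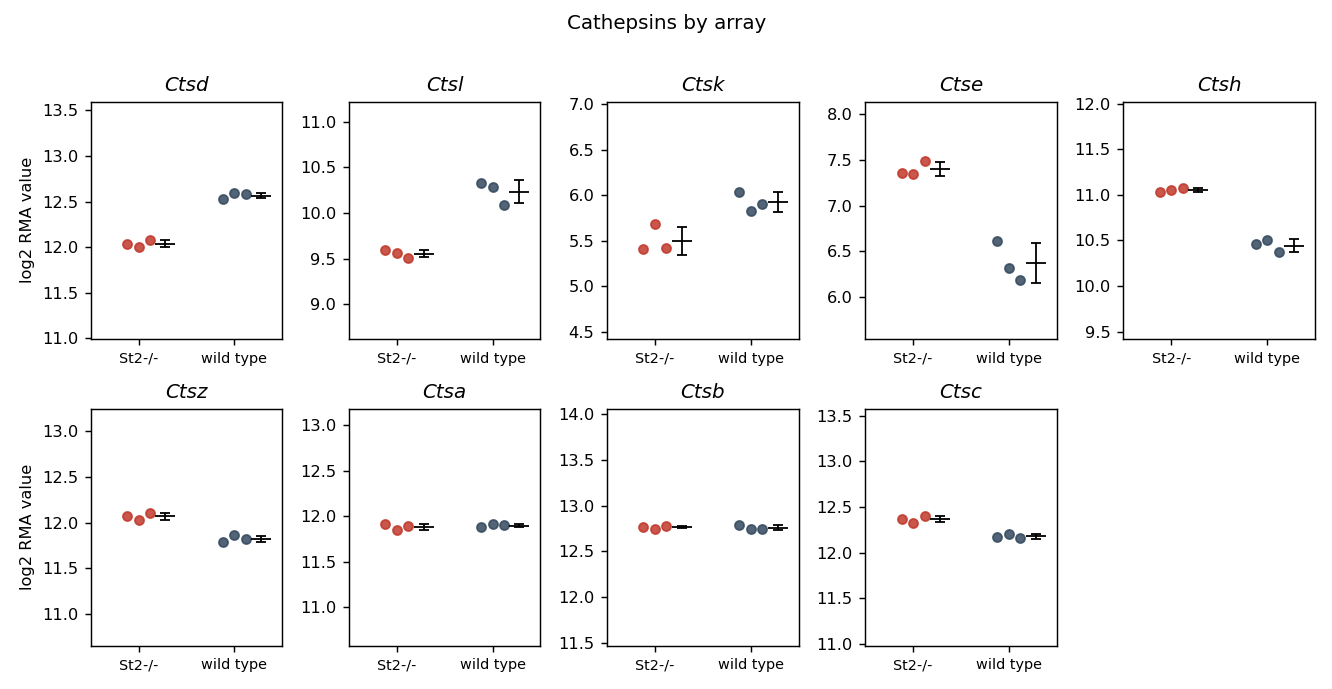
Log2 RMA values of the 9 cathepsin genes on each array, 3 St2-/- (left) and 3 wild type (right), with the mean and SD as a black bar beside the points. Each panel spans the same number of log2 units. Ctsd, Ctsl and Ctsk lie lower in St2-/-, Ctse, Ctsh and Ctsz lie higher, and Ctsa and Ctsb overlap.

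All 13 other hydrolases and soluble proteins were outside the dimmest 40% of genes, and 46.2% were called, against 30.3% of all such genes. Among the 13, 5 rose, 1 fell and 7 were not called, with a median of 0.13. Of those that rose, Psap codes for the precursor of the saposins, which help enzymes reach sphingolipids, Lipa for the acid lipase that frees cholesterol from its esters, and Npc2 for the soluble carrier that binds that cholesterol.

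Psap (probe set 10363430) had 13.04, 12.98 and 13.03 in St2-/- arrays, against 12.67, 12.67 and 12.63 in wild type arrays (0.36 ± 0.06, limma adjusted p = 0.00224). Npc2 (probe set 10401519) had 10.84, 10.82 and 10.97 in St2-/- arrays, against 10.41, 10.48 and 10.34 in wild type arrays (0.47 ± 0.07, limma adjusted p = 0.00128). Lipa (probe set 10467139) had 11.08, 11.05 and 11.16 in St2-/- arrays, against 10.68, 10.67 and 10.71 in wild type arrays (0.41 ± 0.06, limma adjusted p = 0.0013). In these genes every St2-/- array exceeded every wild type array, at folds of 1.28, 1.38 and 1.33. Gaa (probe set 10383088), the glycogen-degrading glucosidase, had 8.50, 8.40 and 8.48 in St2-/- arrays, against 8.13, 8.20 and 8.25 in wild type arrays (0.27 ± 0.07, limma adjusted p = 0.0177). Gla (probe set 10606714), the alpha-galactosidase of globosides, had 10.22, 10.10 and 10.16 in St2-/- arrays, against 9.97, 9.90 and 9.92 in wild type arrays (0.23 ± 0.06, limma adjusted p = 0.0306). The calls of Gaa and Gla were lost after cyclic loess (0.0808 and 0.162), that of Gaa also without St2-/- replicate 1, St2-/- replicate 3 or wild type replicate 1 (up to 0.0666), and that of Gla with every row of the table tested (0.0556) and without any 1 of St2-/- replicates 1 and 3 and wild type replicates 2 and 3 (up to 0.107), so that 3 genes of the group were called higher after cyclic loess and without St2-/- replicate 1 or 3.

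Tpp1 (probe set 10566529), a tripeptidyl peptidase, was the member of the group that fell, with 10.31, 10.20 and 10.27 in St2-/- arrays, against 10.61, 10.60 and 10.72 in wild type arrays (-0.38 ± 0.07, limma adjusted p = 0.0029). Of the 7 uncalled genes, Man2b1, an alpha-mannosidase, had the smallest adjusted p (0.0729, difference 0.17 ± 0.06) and had groups that did not overlap. The asparaginyl endopeptidase gene Lgmn differed by 0.10 ± 0.06, the heparan sulfate enzyme gene Naglu by 0.13 ± 0.07, the progranulin gene Grn by 0.09 ± 0.06, the hexosaminidase gene Hexa by 0.02 ± 0.07, the glucuronidase gene Gusb by -0.07 ± 0.06 and the beta-galactosidase gene Glb1 by -0.13 ± 0.07. Naglu and the pump gene Atp6v0a1 are neighbours on chromosome 11, and the second of them fell (-0.78 ± 0.06).

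No membrane protein gene rose, and 2 of 6 fell (0 higher and 2 lower at an unadjusted p under 0.05, by limma). All 6 were outside the dimmest 40% of genes, and the share called (33.3%) was near the 30.3% of all such genes. Cd63 (probe set 10367436), a tetraspanin of late endosomes and of secreted vesicles, had 8.59, 8.43 and 8.46 in St2-/- arrays, against 8.80, 9.03 and 9.19 in wild type arrays (-0.51 ± 0.10, limma adjusted p = 0.00525). Wild type replicate 1 lay nearest to St2-/-. Npc1 (probe set 10457508), which takes cholesterol from NPC2 and passes it through the lysosomal membrane, had 9.77, 9.79 and 9.79 in St2-/- arrays, against 10.01, 10.05 and 10 in wild type arrays (-0.24 ± 0.06, limma adjusted p = 0.0191). Npc1 was thus lower while Lipa and Npc2 were higher, but centring the arrays on their medians gave an adjusted p of 0.13, and it was 0.0536 to 0.0632 without any 1 of the St2-/- arrays or wild type replicate 2. The main structural proteins of the lysosomal membrane differed little: Lamp1 had 11.47, 11.35 and 11.40 in St2-/- arrays and 11.43, 11.52 and 11.49 in wild type arrays (-0.07 ± 0.06), and Lamp2 had 11.22, 11.17 and 11.21 in St2-/- arrays and 11.23, 11.27 and 11.20 in wild type arrays (-0.03 ± 0.06). Scarb2, the carrier of glucocerebrosidase, and Mcoln1, the calcium channel, differed by -0.06 ± 0.07 and 0.06 ± 0.08 and were not called.

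**Figure D4:**
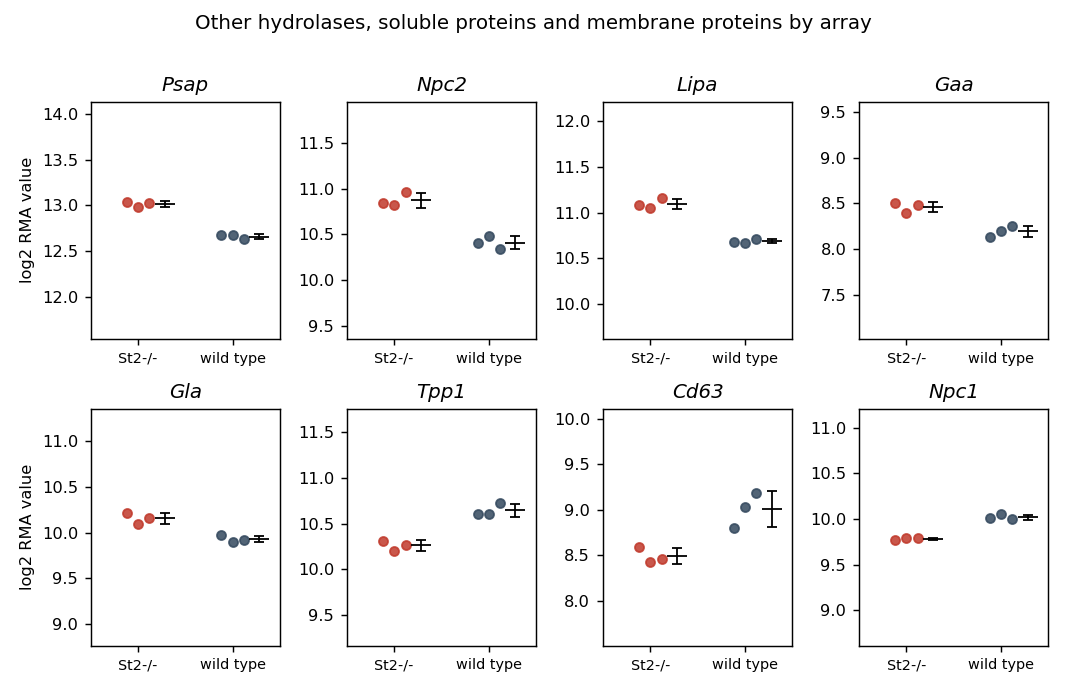
Log2 RMA values on each array, 3 St2-/- (left) and 3 wild type (right), of the called genes among other hydrolases, soluble proteins and membrane proteins, with the mean and SD as a black bar beside the points. Each panel spans the same number of log2 units. Psap, Npc2, Lipa, Gaa and Gla lie higher in St2-/- and Tpp1, Cd63 and Npc1 lie lower, with no overlap in any panel.

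Genes of the proton pump had 6 of 21 higher, 3 lower and 12 not called, with a median of 0.01. Outside the dimmest 40% of genes 9 of 18 were called (50%), against 30.3% of all such genes. The count of higher genes was 2 after cyclic loess and without St2-/- replicate 1, St2-/- replicate 3 or wild type replicate 3, and 3 with every row of the table tested. In the membrane sector Atp6v0e2 and Atp6v0a2 rose, Atp6v0a1 and Atp6v0d2 fell, and the commonly expressed forms Atp6v0d1 and Atp6v0e were not called. Atp6v0c, the gene of the proton-carrying ring, was not analysed here.

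Subunit a, which moves protons and directs the pump to a given membrane, has several isoforms. Atp6v0a1 (probe set 10381187) had 9.44, 9.45 and 9.48 in St2-/- arrays, against 10.25, 10.26 and 10.19 in wild type arrays, a 1.71-fold lower level (-0.78 ± 0.06, limma adjusted p = 1.77e-05). Atp6v0a2 (probe set 10525804), whose product is known from endosomes and the Golgi, had 8.91, 8.88 and 8.95 in St2-/- arrays, against 8.52, 8.44 and 8.43 in wild type arrays (0.45 ± 0.06, limma adjusted p = 0.000725). The isoform genes a1 and a2 thus moved in opposite directions on these probe sets. A second probe set of Atp6v0a2 (10525833) did not share the rise (8.62 in St2-/- and 8.66 in wild type), and the mean of both gave 0.20 with an adjusted p of 0.1. Tcirg1, the isoform of lysosomes and osteoclasts that falls outside the symbol rule, had 10.88, 10.83 and 10.85 in St2-/- arrays, against 10.61, 10.51 and 10.60 in wild type arrays (0.28 ± 0.06, limma adjusted p = 0.0111), and had an adjusted p of 0.0684 after cyclic loess. Atp6v0a4, the kidney isoform, was in the dimmest 40% of genes and differed by -0.04 ± 0.08.

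Subunit d joins the rotating stalk to the membrane ring. Atp6v0d2 (probe set 10511779), the form known from osteoclasts, kidney and some macrophages, had 6.29, 6.24 and 6.35 in St2-/- arrays, against 7.01, 7.18 and 6.95 in wild type arrays, a 1.69-fold lower level (-0.75 ± 0.08, limma adjusted p = 9.67e-05). Atp6v0d1, the common form, had 9.50, 9.39 and 9.46 in St2-/- arrays and 9.38, 9.47 and 9.48 in wild type arrays (0.01 ± 0.07). The 2 groups of Atp6v0d1 covered nearly the same range. Of the genes described here as osteoclast-associated, Ctsk and Atp6v0d2 were lower, Mitf was not called (-0.02) and Tcirg1, outside the set, was higher (0.28). Of 6 osteoclast markers 2 were higher (Acp5 at 0.76 and Nfatc1 at 0.25), 0 lower and 4 not called by limma. The share called was 33.3%, against 20.8% of all genes. In the dimmest 40% of genes lay 3 of the 6 markers. Outside it 2 of 3 were called (66.7%), against 30.3% of all such genes. For 3 of the 6 the unadjusted limma p was under 0.05. Their mean levels were 6.05 to 6.16 in St2-/- and 5.88 to 5.95 in wild type. The part of such cells in these differences was not tested.

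Atp6v0e2 (probe set 10538082), an isoform of the small subunit e known from the nervous system, showed the greatest difference of the 52 genes. It had 7.71, 7.84 and 7.75 in St2-/- arrays, against 6.13, 5.72 and 6.51 in wild type arrays, a 3.13-fold higher level (1.65 ± 0.16, limma adjusted p = 7.86e-05). The wild type arrays were scattered (SD 0.40, against 0.07 in St2-/-), and the difference without any 1 array lay between 1.45 and 1.84. Atp6v0e, the common form, had 9.90, 9.69 and 9.87 in St2-/- arrays and 9.74, 9.77 and 9.66 in wild type arrays, which overlapped (0.10 ± 0.08). The remaining V0 gene, Atp6v0b, differed by -0.11 ± 0.07 and was not called.

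**Figure D5:**
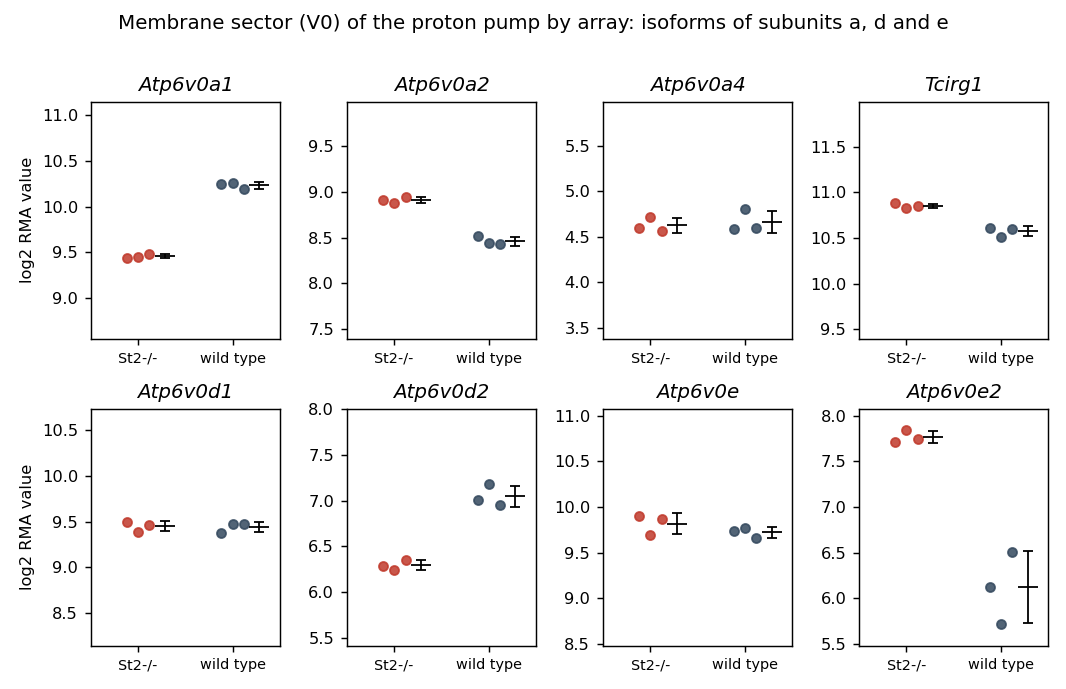
Log2 RMA values on each array, 3 St2-/- (left) and 3 wild type (right), of isoform genes of subunits a (upper row), d and e (lower row) of the membrane sector of the proton pump, with the mean and SD as a black bar beside the points. Each panel spans the same number of log2 units. Atp6v0a1 and Atp6v0d2 lie lower and Atp6v0a2, Tcirg1 and Atp6v0e2 higher in St2-/-, while Atp6v0a4, Atp6v0d1 and Atp6v0e overlap.

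In the cytosolic sector 4 of 13 genes rose, 1 fell and 8 were not called, with smaller differences than in the membrane sector (-0.29 to 0.29). Outside the dimmest 40% of genes 5 of 11 were called (45.5%), against 30.3% of all such genes. Atp6v1a (probe set 10439566), the catalytic subunit, had 10.22, 10.11 and 10.19 in St2-/- arrays, against 10, 9.91 and 9.76 in wild type arrays (0.28 ± 0.08, limma adjusted p = 0.028). Atp6v1c1 (probe set 10423805), which clamps the outer stalks, had 8.87, 8.78 and 8.94 in St2-/- arrays, against 8.59, 8.63 and 8.51 in wild type arrays (0.29 ± 0.07, limma adjusted p = 0.0164). Atp6v1d (probe set 10401138), of the rotating stalk, had 9.40, 9.43 and 9.45 in St2-/- arrays, against 9.22, 9.22 and 9.02 in wild type arrays (0.27 ± 0.07, limma adjusted p = 0.0263). These genes rose by similar amounts, and Atp6v1f, also of the rotating stalk, rose by 0.22 ± 0.07 (limma adjusted p = 0.0452). Atp6v1e1 (probe set 10547521), of the outer stalk, fell, with 8.96, 8.86 and 8.94 in St2-/- arrays, against 9.25, 9.32 and 9.05 in wild type arrays (-0.29 ± 0.08, limma adjusted p = 0.0331). All 5 calls of this sector were weak: those of Atp6v1a, Atp6v1c1, Atp6v1d and Atp6v1f were lost after cyclic loess (adjusted p = 0.057 to 0.236), that of Atp6v1e1 with arrays centred on their median (0.133), and each of the 5 without St2-/- replicate 1 (0.0524 to 0.12) and without St2-/- replicate 3 (0.0734 to 0.152). Without St2-/- replicate 2 the calls of Atp6v1d, Atp6v1e1 and Atp6v1f were lost (0.0537 to 0.108). Without wild type replicate 3 those of Atp6v1a, Atp6v1c1, Atp6v1d and Atp6v1f were lost (0.0512 to 0.0772), without wild type replicate 2 those of Atp6v1a, Atp6v1e1 and Atp6v1f (0.0539 to 0.0957), and without wild type replicate 1 those of Atp6v1e1 and Atp6v1f (0.0954 and 0.125). With every row of the table tested, Atp6v1a, Atp6v1d, Atp6v1e1 and Atp6v1f lost their calls (0.0617 to 0.0803). With the replicate number as a block, those of Atp6v1d, Atp6v1e1 and Atp6v1f were lost (0.0503 to 0.0798).

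Uncalled genes of this sector included common and tissue-restricted forms. Atp6v1b2, the common nucleotide-binding partner of the catalytic subunit, differed by -0.10 ± 0.06, Atp6v1g1 by 0.01 ± 0.06 and the regulatory subunit gene Atp6v1h by 0.02 ± 0.06. Atp6v1b1 and Atp6v1c2, known from kidney, differed by 0.09 ± 0.07 and -0.03 ± 0.06, Atp6v1e2, known from testis, by 0.00 ± 0.07 and Atp6v1g3, known from kidney, by 0.04 ± 0.10. Atp6v1c2 and Atp6v1g3 were in the dimmest 40% of genes. Atp6v1g2, known from neurons, had 6.59, 7.23 and 6.98 in St2-/- arrays and 7.05, 7.07 and 6.95 in wild type arrays, with St2-/- replicate 1 low, and differed by -0.09 ± 0.14.

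Other genes of the lysosomal pathway, taken from lists that do not overlap with the 52, also moved both ways. These lists include the 12 genes that control TFEB, already counted above, and 4 cathepsin inhibitors. Of 74 measured of 79 listed, 17 were higher, 9 lower and 48 not called (35.1% called, against 20.8% of all genes), with a median of 0.07. Outside the dimmest 40% of genes 26 of 71 were called (36.6%), against 30.3% of all such genes. Among 27 measured hydrolases and cofactors 6 were higher and 3 lower. All 27 were outside the dimmest 40% of genes, and the share called (33.3%) was near the 30.3% of all such genes. The arylsulfatase gene Arsb had 8.69, 8.79 and 8.83 in St2-/- arrays, against 10.19, 10.26 and 10.15 in wild type arrays, the greatest difference of these lists (-1.43 ± 0.07, limma adjusted p = 7.08e-07). The cysteine protease gene Ctsf and the exonuclease gene Pld3 fell as well (-0.51 ± 0.11 and -0.25 ± 0.06). The tartrate-resistant acid phosphatase gene Acp5 had 9.96, 9.86 and 9.90 in St2-/- arrays, against 9.15, 9.15 and 9.15 in wild type arrays (0.76 ± 0.06). The thioesterase gene Ppt1 and the carboxypeptidase gene Prcp rose by 0.50 ± 0.07 and 0.38 ± 0.07.

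Of 20 measured membrane proteins outside the 52 genes, 4 were higher and 6 lower. All 20 were outside the dimmest 40% of genes, and 50% were called, against 30.3% of all such genes. The nucleoside transporter gene Slc29a3 rose by 0.82 ± 0.08, the chloride-proton exchanger gene Clcn7, whose product balances the charge moved by the pump, by 0.64 ± 0.11 and Tmem192 by 0.32 ± 0.08. The acetyltransferase gene Hgsnat fell by 0.84 on the log2 scale, Laptm4b by 0.56 and the sialic acid transporter gene Slc17a5 by 0.47. Of 8 measured genes that sort enzymes to lysosomes only Gnptab, which makes the mannose 6-phosphate tag, was called (0.27 ± 0.06). Of 4 cathepsin inhibitors only Cstb, cystatin B, was called (0.24 ± 0.07), and of 3 further pump genes only Tcirg1. The shares called were 12.5%, 25% and 33.3% in turn. Over all genes 20.8% were called, and 30.3% outside the dimmest 40%, in which 2 of the 4 inhibitors lay. Tmem192, Gnptab and Cstb lost their calls after cyclic loess (adjusted p = 0.0501, 0.0587 and 0.14). Pld3 lost its call with arrays centred on their median (0.123) and without any 1 of the St2-/- arrays or wild type replicate 2 (up to 0.0658), Tmem192 without St2-/- replicate 1 (0.0576), Gnptab without St2-/- replicate 3 (0.0509), and Cstb with every row tested (0.0619) and without any 1 of St2-/- replicates 1 and 3 and wild type replicates 1 and 3 (up to 0.109).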

How the data were processed

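RNA of F4/80+ tumour cells was hybridised to Affymetrix 1.0 ST Gene arrays, per the labels' protocols. The deposited values were made by the authors with RMA, per the submitters' processing notes, and were read as log2 values, since RMA returns that scale. The RMA version and the build used were not stated. RMA makes the arrays' distributions alike, so a shift of most genes cannot be seen.

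Of 35556 probe sets, 21789 had 1 symbol in the platform annotation. Each gene took its brightest probe set, leaving 19938 genes, and 4 of the 52 lysosomal genes had further probe sets. Limma 3.58.1 in R 4.3.3 compared St2-/- with wild type (eBayes, two-sided, Benjamini-Hochberg over all genes). Limma was also run on simulated data of 19938 genes, of which 200 were changed. It recovered 4.4% of changes of 0.25, 72.8% of 0.5 and 99.6% of 1 on the log2 scale. Of its calls there 6.96% were unchanged genes. In the real data 4140 genes were called, so the adjustment asked less of each gene and these shares do not carry over. The number of arrays limits the precision, and the scaling and the choice of probe set also moved calls. Every member is named, and up to 5 called genes a group and direction, and the transcription factors, have values for each array. The 52 genes and the other lists were chosen with earlier results of these data known. Up to 3 called genes a list and direction are named from the other lists, and Mtor, Ctss, Ppp3cb and the markers named were picked after their values were seen. The alternatives were 2 rescalings, 2 variance priors, the mean of probe sets, all rows, a filter on the dimmest 40%, a replicate block and leaving out each array.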

Additional observations from a re-analysis of the deposited data

How the results depend on the processing

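Of 24 called lysosomal genes 13 kept their call under all 14 alternatives, 11 lost it under at least 1, and 6 uncalled genes were called under at least 1. The cause of these changes was not tested, except that fits without an array hold fewer samples. After cyclic loess 7 members were called higher and 11 lower, with 3 hydrolases higher and 2 lower, 0 transcription factors and 2 pump genes higher. With arrays centred on their median, which moved all differences by 0.09, 18 members were called higher and 7 lower, 1 membrane protein was called lower, and over all genes 3686 were higher and 1294 lower (74.0% higher, against 51.7%). With every row of the table tested, 0 transcription factors and 3 pump genes were called higher. Without 1 array, members called higher numbered 7 to 12, hydrolases called higher 3 to 5, membrane proteins lower 1 to 2, transcription factors higher 0 to 1 and pump genes higher 2 to 5. With the replicate number as a replicate block, 12 members were higher and 8 lower. Calls lost there were those of Gla (adjusted p = 0.0533), Atp6v1d, Atp6v1e1 and Atp6v1f, and outside the members that of Cstb (0.0659). Same-numbered arrays correlated by 0.01, -0.01 and -0.05 in their deviations. With 3 arrays a group this cannot show whether the numbers pair the samples, and the labels do not say. Counts moved by at most 1.5 times under the variance priors, the mean of probe sets and the filter on dim genes. With 3 arrays a group the smallest difference called was 0.22 among the 52 genes and 0.19 over all genes, and smaller differences were not called.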
